A study of Mus musculus with 319 samples.

Results

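Cathepsins S and H are the products of the mouse genes Ctss and Ctsh, and their mRNA was followed here across skeletal muscle RNA of 319 arrays. The members were all array probes that the platform annotation gives to either gene: 4 probes of 2 genes (2 of Ctss, 2 of Ctsh), of 23382 probes on the array and of 26 probes for the 21 genes whose symbol begins with Cts. The other 22 probes, of 19 genes, served for comparison. All animals were F2 offspring, female and male, of a cross between C57BL/6J and C3H/HeJ mice. Both parental strains lacked ApoE, the apolipoprotein that clears remnant lipoproteins from blood, so every animal carried that deletion, and all ate a high-fat Western diet between weeks 8 and 24 of age. There was 1 group and no untreated or wild-type arm. Each array set the RNA of 1 animal, labelled with Cy3, against a pool made of equal parts of all samples, labelled with Cy5.

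Cathepsins are proteases, most of them active in lysosomes. Cathepsin S is a cysteine endopeptidase of antigen-presenting cells, where it trims the invariant chain from MHC class II molecules, and cathepsin H is a lysosomal cysteine aminopeptidase. Macrophages express many cathepsins, whereas muscle fibres rely on lysosomal cathepsins for part of their protein turnover. Which cathepsins moved with macrophage genes across the animals, and which with muscle genes, was the question put to the data.

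Promoter sequences are shown for 3 genes on which the results below turn: Ctss, with the steepest relation to macrophage genes, Ctsk, its neighbour in gene order on the same chromosome, and Ctsd, which had the steepest rise of the cathepsin probes with the skeletal muscle score. Each window runs from 250 bases before to 50 bases after the annotated gene start and was taken from RefSeq (GRCm38.p6), where 17 of the 21 cathepsin genes were matched, Ctss among them and Ctsh not. Capitals mark every match, on either strand, to 5 sets of letters: the PU.1 core GAGGAA, the interferon-stimulated response element (GAAA, any 2 bases, GAAA), the STAT site TTCNNNGAA, the TFEB E-box CACGTG and the myogenic E-box CAGCTG.
Ctss promoter, chr3:95526536-95526835, plus strand: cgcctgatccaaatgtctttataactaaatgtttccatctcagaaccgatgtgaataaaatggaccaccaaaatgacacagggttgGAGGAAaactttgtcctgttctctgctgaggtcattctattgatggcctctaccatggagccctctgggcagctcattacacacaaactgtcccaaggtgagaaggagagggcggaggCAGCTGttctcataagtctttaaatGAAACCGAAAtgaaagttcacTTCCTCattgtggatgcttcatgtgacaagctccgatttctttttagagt
Ctsk promoter, chr3:95498960-95499259, plus strand: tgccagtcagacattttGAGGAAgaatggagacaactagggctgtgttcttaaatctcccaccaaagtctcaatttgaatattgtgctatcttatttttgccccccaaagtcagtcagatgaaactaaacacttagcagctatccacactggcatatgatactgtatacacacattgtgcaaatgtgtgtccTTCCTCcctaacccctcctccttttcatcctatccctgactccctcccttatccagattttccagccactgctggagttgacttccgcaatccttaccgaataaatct
Ctsd promoter, chr7:142387778-142388077, minus strand: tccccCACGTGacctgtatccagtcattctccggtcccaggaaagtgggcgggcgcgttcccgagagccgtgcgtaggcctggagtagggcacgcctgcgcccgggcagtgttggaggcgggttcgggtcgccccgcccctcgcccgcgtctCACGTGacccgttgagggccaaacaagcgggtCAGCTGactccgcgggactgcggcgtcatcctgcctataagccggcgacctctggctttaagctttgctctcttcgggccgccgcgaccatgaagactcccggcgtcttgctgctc
The Ctss window held 1 match to the interferon-stimulated response element, at bases -21 to -12 from the gene start, 2 to the PU.1 core and 1 to the myogenic E-box. The Ctsk window held 2 PU.1 cores, and the Ctsd window held 2 TFEB E-boxes and 1 myogenic E-box. The Ctsc and Cts8 windows also held 2 PU.1 cores each, a Ctsa window held 2 TFEB E-boxes, and the Ctsz window held no match. On the macrophage score described below, Ctsc had a slope of 0.20, Ctsa 0.13, Ctsz 0.39, and the Cts8 probes -0.072 and -0.024. Among 32851 mouse promoter windows of the same length, 3.44% held the interferon-stimulated response element letters, 28.3% the PU.1 core, 8.30% the STAT site, 7.15% the TFEB E-box and 16.3% the myogenic E-box. The Ctso window held 2 matches to the interferon-stimulated response element, and Ctso, a cysteine cathepsin, had a slope of 0.071 on the macrophage score described below. A match describes the letters only.

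Values are log2 ratios of the animal over the pool, converted from the deposited log10 ratios, so that 0 is the level of the pool and 1 is a doubling. The labels state the dyes but not the direction of the ratio. It was taken from 2 Y-linked genes: Eif2s3y had a median of 1.08 on 155 arrays and of -5.62 on the other 164, so positive values were read as animal above pool. Array medians lay between -0.08 and 0.14, and the SD over probes on an array between 0.21 and 1.08. Of 50721 pairs of arrays, 5078 had a Pearson r under -0.3, and the direction was kept, from the stated dyes and these genes. Genes of lymphocytes split the arrays into 263 with low and 56 with high levels, and the slopes of Ctss and Ctsh probe A and the r between their levels are given also without the 56. The r of single genes with Ctss and Ctsh, for the genes most like them, the list genes and the neighbours, is over all 319 arrays. Because each value is a ratio to a pool of the same muscles, the data cannot show whether a tissue marker was present in absolute terms. Of 50 skeletal muscle genes listed, 38 had a named probe and 19 had one with values on at least 80% of the arrays. Of 29 macrophage genes listed, 25 were measured. In bulk muscle, fewer cells of a type and less RNA per cell cannot be told apart.

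Ctss varied more than nearly all other transcripts. Its log2 ratio had its lowest value at -4.03, its median at -1.32 and its highest value at 2.42, a range of 87.3-fold, and its SD of 1.31 (n = 319 arrays) was above that of 99.1% of the probes tested. Most animals lay below the pool and a smaller number far above it: 256 arrays were below 0 and 63 above. Ctsh was measured by 2 probes, named A and B here by the size of their SD after the values were seen. Probe A had its lowest value at -1.93, its median at -0.62 and its highest value at 1.73, with an SD of 0.71, above that of 95.2% of probes. It was below 0 on 258 arrays and above on 61. Probe B hardly varied, between -0.62 and 0.67 around a median of 0.08, with an SD of 0.15. A second Ctss probe, whose platform annotation points to a gene of another species, also varied little, between -0.69 and 1.23 around a median of 0.08, with an SD of 0.18.

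**Figure D1:**
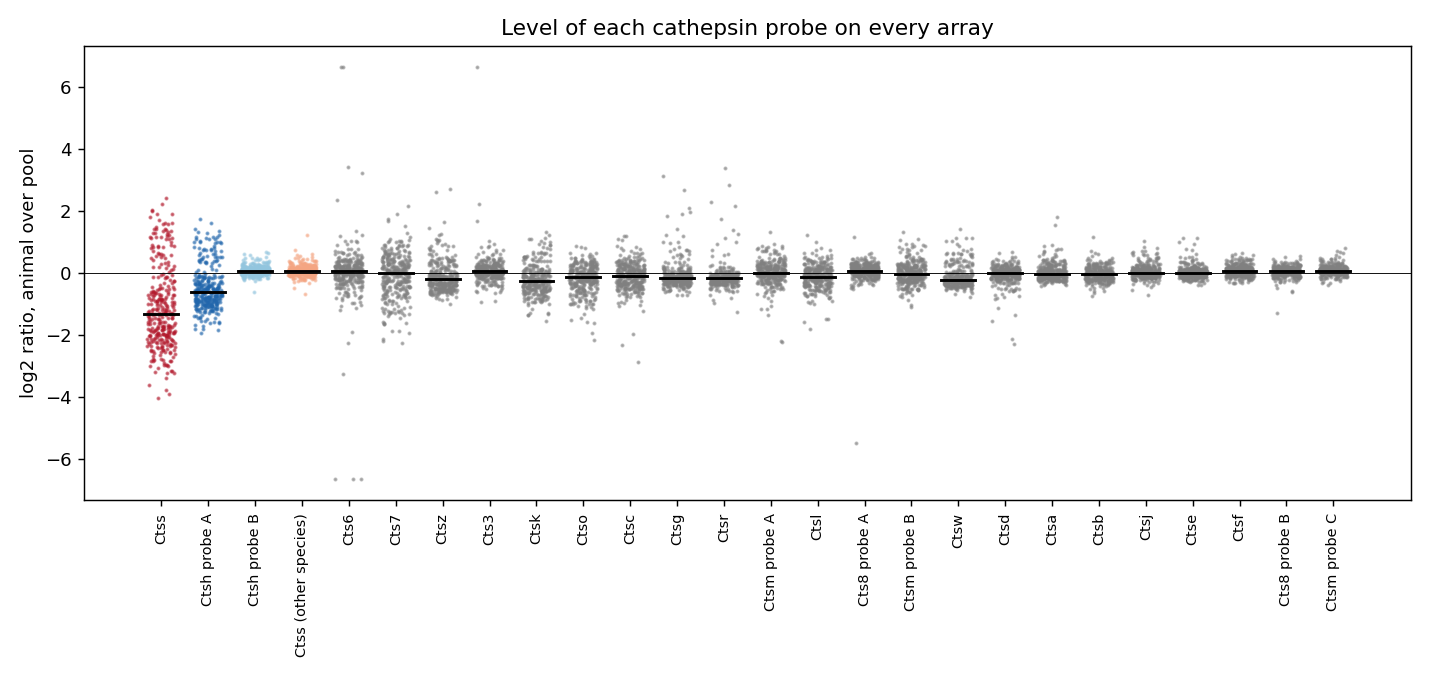
Log2 ratio of animal over pool (vertical axis) for each of the 26 cathepsin probes (horizontal axis), with 1 point per array and a bar at the median; the probes of Ctss and Ctsh are coloured and stand left of the others, which are ordered by SD. Ctss spreads from -4.03 to 2.42 with its median at -1.32, and Ctsh probe A from -1.93 to 1.73, whereas the other probe of each gene stays near 0.

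Among the other cathepsins the medians lay nearer to the pool. Ctsz, cathepsin Z, a carboxypeptidase, had its median at -0.21 (SD 0.49) and Ctsk, the collagen-degrading cathepsin K of osteoclasts, at -0.26 (SD 0.48). Ctsw, a cathepsin of cytotoxic lymphocytes, had its median at -0.23 (SD 0.35). Ctsb and Ctsd, the cysteine protease cathepsin B and the aspartic protease cathepsin D, had medians of -0.04 (SD 0.23) and -0.01 (SD 0.32). Cts6 had the widest SD of these probes, 1.00, with 5 arrays at the limits of the deposited scale. Cts3, Cts6, Cts7, Cts8, Ctsj, Ctsm and Ctsr belong to a family expressed in rodent placenta.

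Ctss and Ctsh probe A rose and fell together. They lay on the same side of the pool on 311 of 319 arrays, both above it on 58 and both below it on 253, and on opposite sides on 8. Their Pearson r was 0.902 and their Spearman rho 0.839, and r was 0.898 when the 2 arrays most distant from the Ctss median were left out (two-sided permutation tests, p = 1e-05 for both, the smallest that 100000 resamples can give, and 1e-05 after adjustment over 5 probe pairs). Within the arrays below the lymphocyte gap r was 0.751, and within those above it 0.859. The SD of Ctss was 1.86 times that of Ctsh probe A.

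The remaining pair of probes did not follow them. Ctsh probe B had an r of -0.290 with Ctsh probe A (rho -0.344) and of -0.348 with Ctss (rho -0.399). The Ctss probe annotated to another species had an r of -0.367 with Ctss (rho -0.401), and of 0.370 with Ctsh probe B (rho 0.340). All 4 correlations had a permutation p of 1e-05, raw and adjusted. The level of Ctsh depended on the probe. Both probes are given for the levels, the probe pairs and the slopes on each score alone. For the model with both scores and for the list scores, values are given for probe A. The pairs of cathepsin genes, the differences in r, the most alike genes, the list genes and the neighbours use the mean of both. The array median moved with all 4 probes: r was -0.782 for Ctss, -0.782 for Ctsh probe A, 0.582 for Ctsh probe B and 0.464 for the other Ctss probe. Its part in the results was not tested beyond the alternative that subtracts it.

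**Figure D2:**
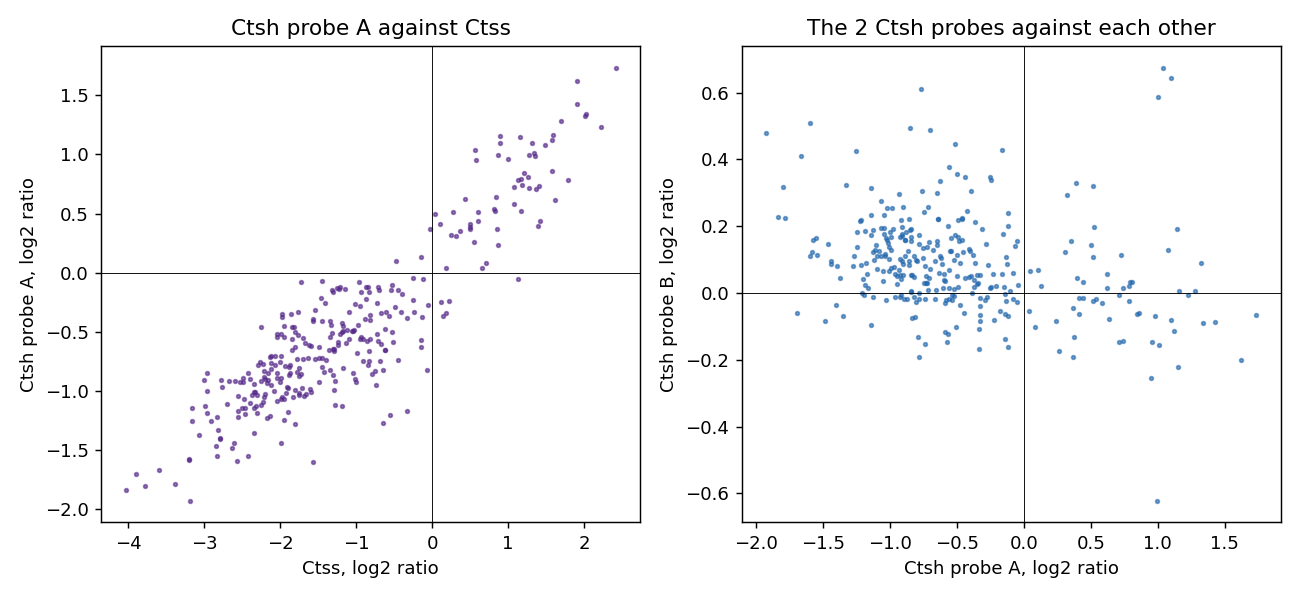
Left, Ctsh probe A against Ctss, and right, Ctsh probe B against Ctsh probe A, as log2 ratios of animal over pool with 1 point per array (n = 319). Ctss and Ctsh probe A lie along a rising line (r = 0.902), whereas the 2 Ctsh probes have an r of -0.290.

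With the 2 Ctsh probes averaged to 1 value per gene, r between Ctss and Ctsh was 0.863 and rho 0.789 (permutation test, n = 319, adjusted p = 2.73e-05 and 2.62e-05 over the 210 pairs of cathepsin genes, of which 131 passed the threshold of 0.05). Leaving out the 2 arrays most distant from the Ctss median gave 0.856. It was 0.666 among the 263 arrays low in lymphocyte genes and 0.708 among the 56 high in them. After the macrophage and skeletal muscle scores were taken out of both genes, r of what remained was 0.187. Ctsz came next to Ctss, with an r of 0.731 (rho 0.719, adjusted p = 2.73e-05), and Ctsk followed with 0.717 (rho 0.743). On the 263 low and the 56 high arrays, Ctsz had 0.531 and 0.282 with Ctss, and Ctsk 0.712 and 0.487. With Ctsh, Ctsz had an r of 0.813 (rho 0.739) and Ctsk of 0.586 (rho 0.623). On the low and the high arrays, these were 0.574 and 0.697 for Ctsz, and 0.569 and 0.0645 for Ctsk. Ctsd had an r of -0.0731 with Ctss (rho 0.0044, adjusted p = 0.234) and of -0.365 with Ctsh (rho -0.289, adjusted p = 2.73e-05). Within the arrays low and high in lymphocyte genes, Ctsd had 0.180 and 0.240 with Ctss, both positive, and -0.235 and -0.364 with Ctsh. Ctsf, a cysteine cathepsin, was negative with both, at -0.355 with Ctss and -0.178 with Ctsh over all arrays. On the low and the high arrays it had -0.250 and -0.409 with Ctss, but 0.0220 and -0.0119 with Ctsh.

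Each list of genes was summarised as a score, the mean of its standardised genes scaled to an SD of 1. The mean pairwise r between the genes of a list was 0.505 for macrophage and 0.214 for skeletal muscle. How far this affects the comparison of the 2 scores was not tested. The slope of every probe on a score was fitted with limma. A slope is a log2 difference per SD of the score. The macrophage list includes Cd53, a tetraspanin of leukocytes, so its score need not reflect macrophages alone. Ctss rose with the macrophage score by 1.23 ± 0.026 (SE, n = 319, adjusted p = 4.91e-141), which is 2.34-fold per SD. Ctsh probe A rose by 0.64 ± 0.017 (adjusted p = 1.42e-119), or 1.56-fold. Ctsh probe B and the other Ctss probe fell slightly, with slopes of -0.036 ± 0.0082 (adjusted p = 4.04e-05) and -0.046 ± 0.0095 (adjusted p = 4.92e-06). The slope of Ctsh probe B did not pass when array medians were subtracted (-0.016, adjusted p = 0.0527), and that of the other Ctss probe did not pass without the arrays above the lymphocyte gap (-0.012, adjusted p = 0.307). Of the 4 member probes 2 thus rose and 2 fell, against a background in which 21.5% of 23165 probes rose with the score and 52.4% fell (73.9% in all) and so the size of the slope is given with each call. Of the calls over all probes, 29.1% were rises, and 45.4% were rises when array medians were subtracted.

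Of the 22 probes of other cathepsins, 13 rose with the macrophage score, 6 fell and 3 did not pass. The counts were 14 and 2 with array medians subtracted, 6 and 0 without the 56 arrays high in lymphocyte genes, and 5 and 3 with the first principal component over all probes as a covariate. Over all 23165 probes, rises and falls in the same settings numbered 6939 and 8341, 3046 and 7038, and 2604 and 4034. The steepest of the other cathepsins were Ctsz at 0.39 ± 0.016 and Ctsk at 0.34 ± 0.019, then Ctsw at 0.22, Ctsc, the dipeptidyl peptidase that activates granule proteases, at 0.20, the cysteine endopeptidase Ctsl at 0.15, the serine carboxypeptidase Ctsa at 0.13 and Ctsb at 0.11. Ctsd fell by 0.067 ± 0.017 on the log2 scale (adjusted p = 0.000217), but its slope did not pass with array medians subtracted (-0.035, adjusted p = 0.0768), with quantile normalization (-0.024, adjusted p = 0.0833) or without the 56 arrays (-0.0092, adjusted p = 0.666), and was 0.069 with the first principal component as a covariate (adjusted p = 0.0914). The slope of Ctss was thus larger than that of any other cathepsin probe in this fit, and that of Ctsh probe A came second. Without the 56 arrays high in lymphocyte genes, Ctsz had a slope of 0.20 and Ctsw one of 0.024 that did not pass (adjusted p = 0.0515), and with the first principal component over all probes as a covariate the slope of Ctsw turned to -0.11 (adjusted p = 2.53e-07). Genes of other cell types moved with the same score: 15 of 17 lymphocyte probes, 15 of 18 fibroblast and matrix probes and 9 of 12 adipocyte probes rose with it, and 20 of 21 skeletal muscle probes fell. The part of fibroblasts and adipocytes in these slopes was not tested.

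The skeletal muscle score gave the opposite picture. Ctss fell by 0.91 ± 0.053 per SD of it (adjusted p = 5.36e-46) and Ctsh probe A by 0.56 ± 0.024 (adjusted p = 6.37e-69). Without the 56 arrays high in lymphocyte genes these slopes were -0.22 (adjusted p = 0.000143) and -0.19 (adjusted p = 3.15e-13). With the first principal component as a covariate, Ctss turned to 0.28 (adjusted p = 0.00044) and Ctsh probe A to 0.0016 (adjusted p = 0.973). The other Ctss probe rose, by 0.042 ± 0.0096, and Ctsh probe B had a slope of 0.011 (adjusted p = 0.242) that turned to -0.021 (adjusted p = 0.0089) with array medians subtracted. Of the 4 member probes 1 rose, 2 fell and 1 did not pass, where 48.8% of 23169 probes rose and 25.5% fell (74.3% in all). Of the calls, 65.7% were rises, and 50.6% with array medians subtracted. Among the other cathepsins 4 probes rose, 14 fell and 4 did not pass, and 1 rose and 14 fell with array medians subtracted. In that setting 8368 of all 23169 probes rose and 8173 fell. Ctsd had the steepest rise of the cathepsin probes, 0.15 ± 0.016 (adjusted p = 6.19e-18). Ctsz fell by 0.36, Ctsw by 0.26 and Ctsk by 0.22 on the log2 scale.

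**Figure D3:**
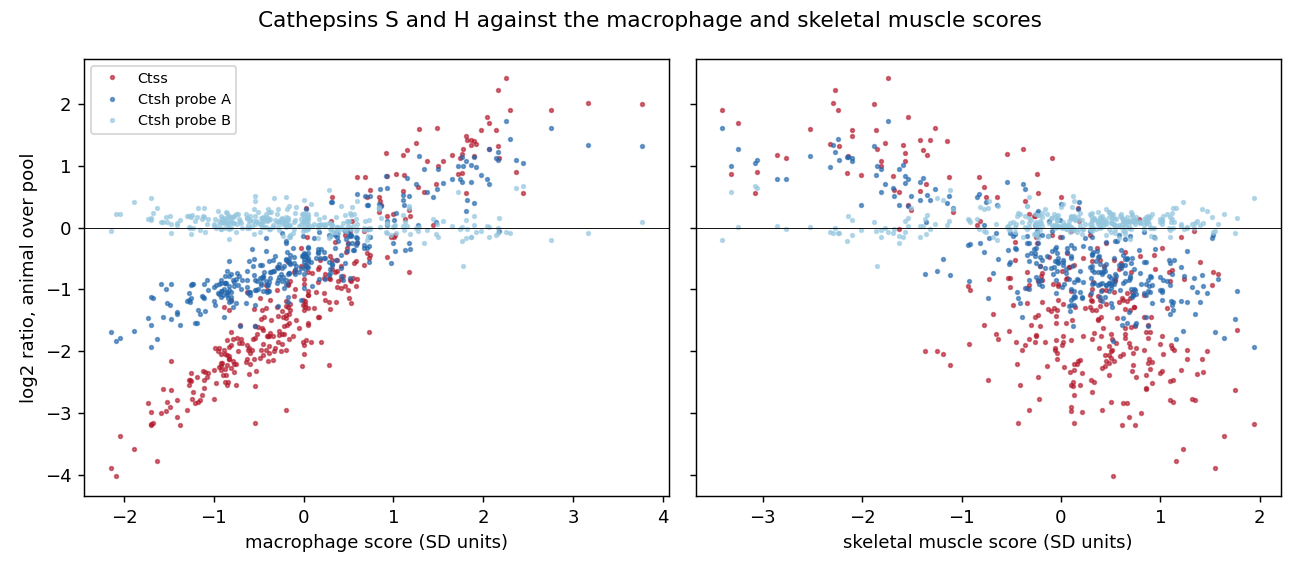
Log2 ratio of animal over pool for Ctss and both Ctsh probes (vertical axis) against the macrophage score (left) and the skeletal muscle score (right), both in SD units, with 1 point per array. Ctss climbs by 1.23 and Ctsh probe A by 0.64 per SD of the macrophage score, both descend along the muscle score, and Ctsh probe B stays near 0.

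The 2 scores were themselves related (r = -0.736), so both were put into 1 model. With the muscle score held, Ctss rose with the macrophage score by 1.21 ± 0.039 (adjusted p = 2.72e-95) and Ctsh probe A by 0.50 ± 0.022 (adjusted p = 6.56e-66). In that fit 2 of the 4 member probes rose and 2 fell, where 16.4% of 23144 probes rose and 39.5% fell (55.9% in all). With the macrophage score held, the muscle slope of Ctss was -0.017 ± 0.039 (adjusted p = 0.718), and that of Ctsh probe A was -0.19 ± 0.022 (adjusted p = 7.26e-16). No member probe rose with the muscle score in that fit, 2 fell and 2 did not pass, where 31.7% of probes rose and 26% fell (57.6% in all). Without the 56 arrays above the lymphocyte gap the macrophage slopes were 0.86 for Ctss and 0.33 for Ctsh probe A, and the muscle slopes were 0.13 for Ctss (adjusted p = 4.98e-07), turned in sign, and -0.053 for Ctsh probe A (adjusted p = 0.00169). With the first principal component as a covariate, these muscle slopes turned to 0.28 for Ctss (adjusted p = 1.76e-08) and 0.0033 for Ctsh probe A (adjusted p = 0.925). Ctsd had partial slopes above 0 on both scores, 0.089 ± 0.023 on the macrophage score (adjusted p = 0.000389) and 0.21 ± 0.023 on the muscle score (adjusted p = 2.51e-17). Ctsk had 0.39 ± 0.028 and 0.072 ± 0.028 (adjusted p = 0.0193), Ctsz 0.27 and -0.16, and Ctsw 0.061 and -0.21. The muscle slope of Ctsk did not pass under 5 of 13 alternatives, with values of 0.013 to 0.058. The macrophage slope of Ctsw turned to -0.0012 (adjusted p = 0.937) without the 56 arrays and to -0.11 (adjusted p = 2.34e-07) with the first principal component as a covariate.

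The macrophage slope minus the muscle slope in that model was 1.23 ± 0.028 for Ctss (adjusted p = 3.93e-133) and 0.69 ± 0.016 for Ctsh probe A (adjusted p = 9.33e-133), and 0.73 and 0.38 for them without the 56 arrays. It was above 0 for 2 and below 0 for 2 of the 4 member probes, where it was above 0 for 24.3% of 23144 probes and below 0 for 51.7% (76% in all); of the calls 31.9% were above 0, and 47.4% with array medians subtracted. Among the other cathepsins 15 probes were above 0, 6 below and 1 did not pass. The counts above and below were 15 and 1 with array medians subtracted, 11 and 2 without the 56 arrays, and 7 and 3 with the first principal component as a covariate. Over all 23144 probes they were 7761 and 8617, 4667 and 7237, and 4480 and 4616 in the same settings. Ctsz had 0.44, Ctsk 0.32 and Ctsw 0.27, and Ctsd had -0.12 ± 0.016 (adjusted p = 1.97e-12).

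**Figure D4:**
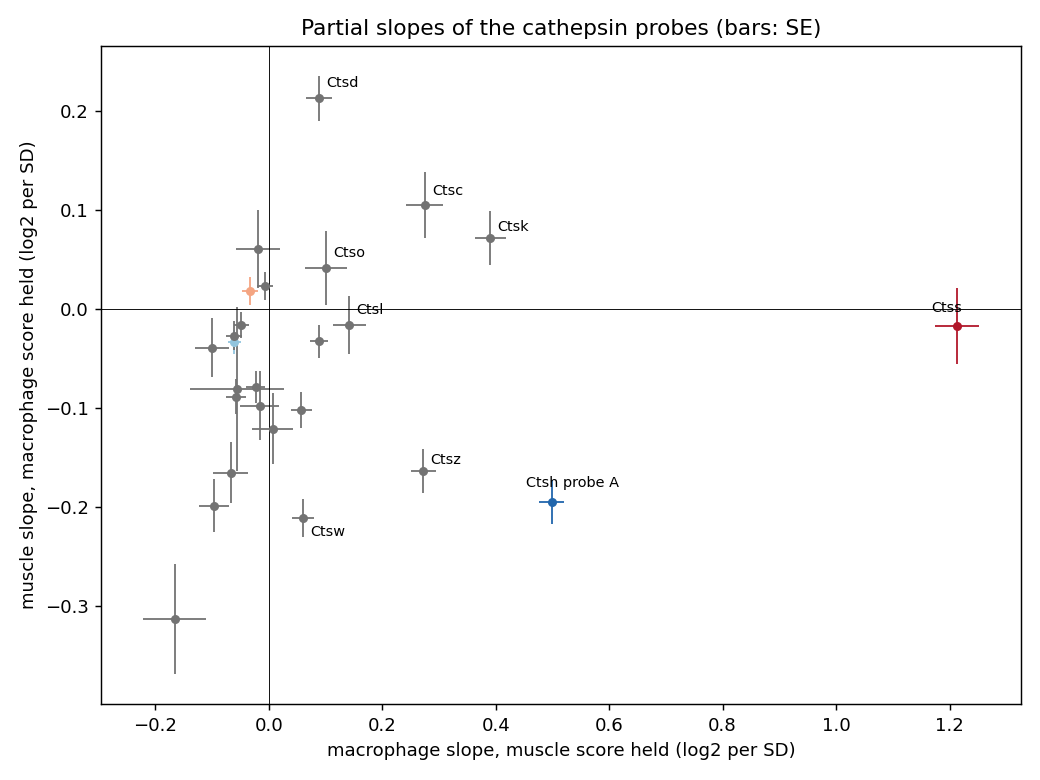
Slope on the macrophage score with the muscle score held (horizontal axis) against slope on the muscle score with the macrophage score held (vertical axis), in log2 units per SD, for the 26 cathepsin probes with bars of 1 SE. Ctss stands far right at 1.21 and -0.017, Ctsh probe A at 0.50 and -0.19, and Ctsd at the top at 0.089 and 0.21.

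How closely a cathepsin followed the macrophage score, whatever its spread, was compared by r. The r of Ctss with the score was 0.934 and that of Ctsh, both probes averaged, 0.894. The difference of 0.041 did not pass (permutation test, adjusted p = 0.167 over 39 comparisons, of which 38 passed), which does not show that they follow it alike. It passed under 4 of 13 alternatives, at 0.0762 with quantile normalization (adjusted p = 0.0304), 0.105 without the 56 arrays (adjusted p = 0.0384), 0.213 with the first principal component as a covariate (adjusted p = 0.000975) and 0.444 on ranks (adjusted p = 1.3e-05). Ranking gives both Ctsh probes equal weight in their average, and the part of this weighting in the value on ranks was not tested. Ctsh probe A alone had an r of 0.908 with the score on the unranked values. Ctss exceeded Ctsz (r = 0.801) by 0.133 (adjusted p = 0.00112) and Ctsk (r = 0.708) by 0.226 (adjusted p = 1.11e-05). Ctsh exceeded Ctsz by 0.0925 (adjusted p = 0.0075) and Ctsk by 0.185 (adjusted p = 0.000336). The lead of Ctsh over Ctsz did not pass with quantile normalization (0.0579, adjusted p = 0.134) or without 20 arrays of outlying SD (0.0527, adjusted p = 0.117). On ranks its leads over Ctsz and Ctsk turned to -0.296 and -0.261, and with the first principal component as a covariate its lead over Ctsk was 0.0033 (adjusted p = 0.963). Ctsd had an r of -0.213 with the score, and Ctss exceeded it by 1.15 and Ctsh by 1.11.

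Across the 17 lists, 608 relations of cathepsin probes with scores were computed. Ctss and Ctsh probe A had an r of 0.934 and 0.908 with the macrophage score (rho 0.924 and 0.894) and of -0.693 and -0.795 with the skeletal muscle score (rho -0.538 and -0.652). With the score of glycolysis and glycogen genes they had -0.629 and -0.736 (rho -0.532 and -0.647). Pygm, Pfkm and Phkg1 are in both of these lists, so the 2 scores are not separate measures. With the adipocyte score Ctss and Ctsh probe A had 0.642 and 0.659 (rho 0.625 and 0.662), and with the fibroblast and matrix score 0.416 and 0.469 (rho 0.487 and 0.603). These relations all had an adjusted p of 3.75e-05 for r in permutation tests. When the 2 arrays with the most distant scores were left out, Ctss kept an r of 0.935 with the macrophage score and -0.685 with the muscle score, and Ctsh probe A 0.906 and -0.785. Endothelial genes gave -0.0626 and -0.0663 (adjusted p = 0.374 and 0.347), but their own mean pairwise r was only 0.177.

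The scores of interferon response, MHC class II and lymphocyte genes fell into 2 clusters of arrays, and r is given within each. With the interferon score Ctss had an r of 0.555 on the 268 arrays of the lower cluster (rho 0.511) and 0.543 on the 51 of the upper (rho 0.551), and Ctsh probe A had 0.585 and 0.545. With the MHC class II score Ctss had 0.374 on 265 arrays and 0.632 on 54, and Ctsh probe A 0.433 and 0.770. With the lymphocyte score neither relation passed on the 263 arrays of the lower cluster (Ctss -0.0522, permutation test, adjusted p = 0.517; Ctsh probe A -0.0126, adjusted p = 0.892), and both were positive on the 56 of the upper (0.393, adjusted p = 0.00862, and 0.553, adjusted p = 7.2e-05). Without those 56 arrays the macrophage slope was 0.81 for Ctss (adjusted p = 3.25e-98) and 0.35 for Ctsh probe A (adjusted p = 4.23e-68), against 1.23 and 0.64 over all arrays.

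Other cathepsins followed other lists. Ctsw had an r with the lymphocyte score of 0.708 on the 263 lower arrays (rho 0.657) and 0.860 on the 56 upper (rho 0.819). Ctsg, a serine protease of neutrophil granules, had an r with the neutrophil and marrow score of 0.676 on 293 arrays (rho 0.584) and 0.947 on 26 (rho 0.825). Ctse, an aspartic protease, had 0.795 with it on those 26 (rho 0.646). Ctsk had an r of 0.693 with the fibroblast and matrix score (rho 0.707), close to its 0.708 with the macrophage score. Ctsd had its largest r, 0.651, with the glycolysis and glycogen score (rho 0.555), with which Ctsz had -0.835 (rho -0.700). Each of these relations had an adjusted p of 3.75e-05 in a permutation test.

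The named genes whose levels were most like those of Ctss, by Pearson r over all arrays among 10755 genes, were Mpeg1, the macrophage pore protein perforin-2 (0.968), Cd53, a leukocyte tetraspanin (0.950), Clec7a, the beta-glucan receptor dectin-1 (0.947), Slamf8 (0.945) and Gpr65, a proton-sensing receptor (0.936). Apobec1, Cd84, Cotl1, Igsf6 and Ly86 followed, at 0.930 to 0.919. For Ctsh, with both probes averaged, they were Ptpn18, a tyrosine phosphatase (0.930), Cotl1, an actin-binding protein (0.925), Gmfg (0.922), the actin-sequestering thymosin Tmsb4x (0.914) and Gpsm3 (0.913), followed by Il10ra, Themis2, Ly86, Arhgdib and Mpeg1 at 0.912 to 0.906. The 2 lists shared 3 of their first 10 genes and 54 of their first 100. Ctsh stood at rank 57 with Ctss, and Ctss at rank 63 with Ctsh.

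At the other end stood Cacng5, a calcium channel subunit (-0.778), Rps6kb2 (-0.769), Kirrel3 (-0.759), Mettl22 (-0.756) and Nags (-0.749) for Ctss. For Ctsh they were Mapk12, the p38 kinase abundant in skeletal muscle (-0.783), Nags (-0.778), Nme6 (-0.776), Dusp13 (-0.756) and the lysyl-tRNA synthetase Kars (-0.753). The other cathepsins had different closest genes: Ctsz had the actin-capping protein Capg (0.918), Ctsk had Anxa1 (0.810) and Vim (0.796), Ctsd had Brms1 (0.869), Ctsg had the neutrophil enzyme Mpo (0.880), Ctsb had Stab1 (0.700), and Ctsw had Pglyrp2 (0.923) and the T cell receptor subunit Cd3e (0.912).

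Gene by gene, 23 of 25 macrophage genes had a positive r with Ctss and 24 of 25 with Ctsh, with medians of 0.771 and 0.770, where the medians over all named genes were -0.134 and -0.113. Over all 10753 named genes, 3750 were positive with Ctss and 3944 with Ctsh, and 1071 and 1084 had an r over 0.5. Of the 25 macrophage genes 19 had an r over 0.5 with Ctss and 19 with Ctsh. The exceptions at the low end were Cx3cr1, the fractalkine receptor, at -0.391 and -0.229, and Spi1, which encodes PU.1, at -0.141 and 0.105. The measured SD of Spi1 was 0.17 and that of Cx3cr1 0.15. High r was not particular to macrophage genes. Of 16 lymphocyte genes, 12 had an r over 0.5 with Ctss and 12 with Ctsh, with medians of 0.651 and 0.727. Of 12 cytotoxic T and NK cell genes, 9 and 10 did, with medians of 0.692 and 0.725. Of 19 skeletal muscle genes 1 was positive with Ctss, Synpo2l at 0.0200, and none with Ctsh. The most negative was Pygm, muscle glycogen phosphorylase, at -0.594 with Ctss and -0.670 with Ctsh.

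All 9 MHC class II presentation genes were positive with both, where 3750 of 10753 named genes were positive with Ctss and 3944 with Ctsh. H2-Eb1 had an r of 0.905 with Ctss and 0.903 with Ctsh, and H2-Aa 0.897 and 0.903. Ifi30, the lysosomal thiol reductase of antigen processing, had 0.490 and 0.660. In the macrophage fit all 9 probes of the list rose, with a median slope of 0.25. Over all probes 21.5% rose and the median was -0.029. Of 23 interferon response genes 22 were positive with Ctss and 21 with Ctsh, against the same counts over all named genes. Psmb9, an immunoproteasome subunit, had 0.827 with Ctss, Irf1 had 0.846 with Ctsh, and Xaf1 was lowest at -0.469 and -0.286.

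Lysosomal genes lay on both sides of 0, as did named genes in general. Of 35 measured, 14 were positive with Ctss and 12 with Ctsh, with medians of -0.0807 and -0.116. Of all 10753 named genes, 3750 were positive with Ctss and 3944 with Ctsh, with medians of -0.134 and -0.113. The upper tail was larger than in named genes in general. An r over 0.5 was held by 11 lysosomal genes with Ctss (31.4%) and 8 with Ctsh (22.9%), against 9.96% and 10.1% of all named genes. Of the 36 lysosomal probes 13 rose with the macrophage score, 16 fell and 7 did not pass. Over all probes 21.5% rose and 52.4% fell. At the top of the lysosomal list were the alpha-mannosidase gene Man2b1 (0.833 with Ctss, 0.841 with Ctsh), progranulin, Grn (0.829 and 0.719), and beta-glucuronidase, Gusb (0.792 and 0.664). At the bottom was acid sphingomyelinase, Smpd1, at -0.507 and -0.684, and Gaa, acid alpha-glucosidase, had -0.463 and -0.450. Among 7 genes of cystatins and other cathepsin inhibitors, 3 had an r over 0.5 with Ctss and 3 with Ctsh. Cst7, which encodes cystatin F of leukocytes, had 0.780 and 0.820, Ctla2a 0.668 and 0.661, and Serpina3n 0.608 and 0.530. Cst3, the widely expressed cystatin C, had 0.0823 and -0.0067, and Stfa2 was lowest with Ctss at -0.207.

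**Figure D5:**
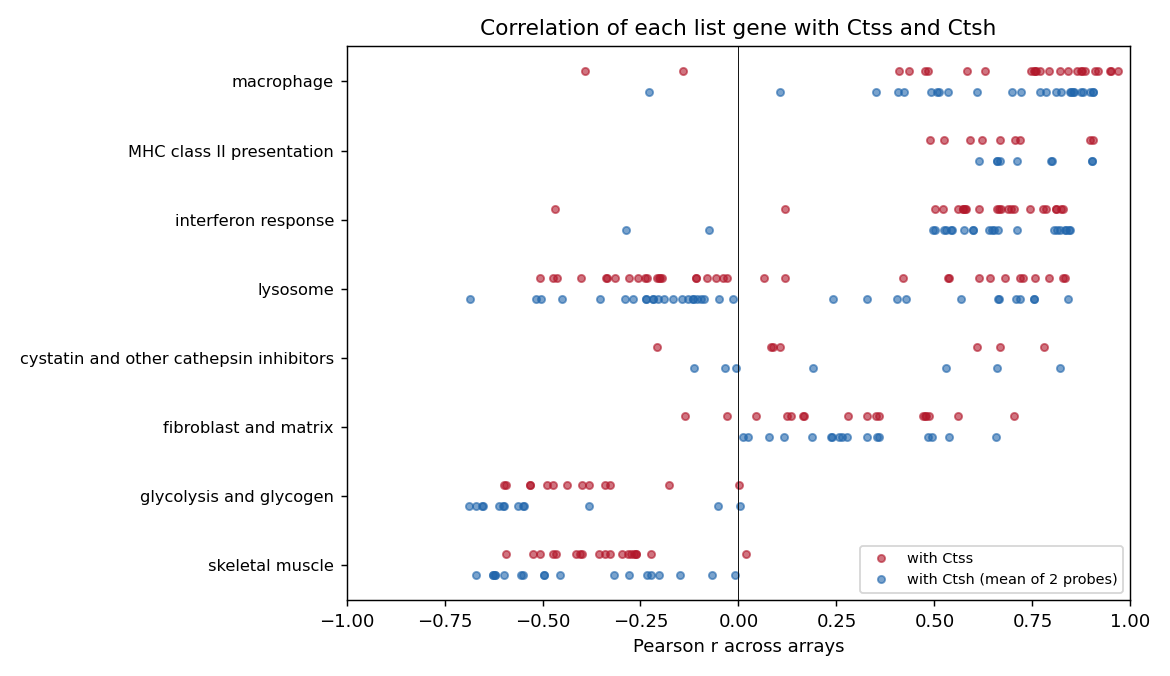
Pearson r across arrays (horizontal axis) of each measured gene of 8 lists (rows) with Ctss (upper points) and with Ctsh, both probes averaged (lower points). Macrophage, MHC class II and interferon genes lie mostly above 0.5, skeletal muscle and glycolysis genes mostly below 0, and lysosome genes on both sides, from -0.507 to 0.833 with Ctss. The lymphocyte and the cytotoxic T and NK cell lists are not drawn.

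Position in the genome was described through gene order. The 3 measured neighbours of Ctss on one side were Ctsk, Arnt and Setdb1, with an r of 0.717, -0.301 and -0.309, and on the other side Ensa, Mcl1 and Adamtsl4, with -0.303, -0.0114 and -0.469. Ctsk was the only positive one among these 6. The neighbours of Ctsh were Rasgrf1 (-0.378), Minar1 (-0.0789) and Bcl2a1a, a BCL2 relative of blood cells (0.601), on one side, and Morf4l1 (-0.379), Adamts7 (0.0298) and Tbc1d2b (-0.449) on the other.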

How the data were processed

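Dual-channel arrays of muscle RNA from F2 mice were analysed. The authors deposited a value table of log10 ratios, limited to between -2 and 2 (100-fold), per array; the base was read from those limits, and the background correction, normalization and software are not given in the sources used here. Values were converted to log2. Probes were named through the platform annotation's gene identifiers found in RefSeq (GRCm38.p6). Probes with values on at least 80% of arrays were tested (23190 of 23382, 12647 of all probes named). Slopes were fitted with limma 3.58.1 in R 4.3.3 (lmFit, eBayes), with Benjamini-Hochberg adjustment over all probes and a threshold of 0.05; members of a score's own list were left out. Correlations were tested by permutation (100000 resamples) in Python 3.11.15 with numpy 2.4.6. A score was treated as clustered where its best split, with at least 15 arrays a side, separated means by over 4 within-group SDs. The procedures were tested on simulated data. Each array was taken as 1 animal; 2 arrays carry animal number 227, 1 array has number 399 in its title and 339 in its source name, and the sample descriptions mention 330 mice against 319 in the design text. Nothing in the labels gives sex, genotype or batch per array. The number of arrays limits precision. Named genes were all Cts genes, the 10 most and 5 least alike to Ctss and Ctsh, and the closest to the other cathepsins. Extremes of the lists, genes that lists share and 3 neighbours on each side were also named. A few further list genes (H2-Aa, Ifi30, Spi1, Grn, Gusb, Gaa, Cst3, Ctla2a, Serpina3n) were chosen after their values were seen. The members and lists were chosen with earlier results of these data known. A planned comparison of protein sequences was not run. In all, 13 alternatives were computed.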

Additional observations from a re-analysis of the deposited data

How the results depend on the processing

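Of 1099 values of 85 single results under 13 alternatives, 937 stayed the same, 61 lost their call, 17 gained one, 61 changed sign and 23 moved. For slopes and r, the same means that direction and call were kept, also where neither passed. For counts, it means near the main count, and moved means further from it. Left out of the 85 were the totals of calls, r between Ctss and Ctsh, and the slopes of Ctss and Ctsh probe A on each score alone. The macrophage slopes of Ctss (0.81 to 1.26) and Ctsh probe A (0.32 to 0.67) kept direction and call under all 13. So did their difference of slopes and r between Ctss and Ctsh (0.336 to 0.902, lowest with the first principal component). These ranges leave out the setting on ranks. Probes called with the macrophage score numbered 17116, but 10084 without the 56 arrays above the lymphocyte gap and 6638 with the first principal component as a covariate; that component also took calls to 11051 of 17208 for the muscle score and to 9096 of 17588 for the difference. It held 24.0% of the variance and correlated with the scores at 0.851 and 0.863 in size. With array medians subtracted, the macrophage slope changed sign for Cts8 probe B (0.0013), and the muscle slope for Ctsh probe B (-0.021), Ctsf (-0.0094) and Ctsm probe C (-0.013), and the muscle slope with macrophage held for Ctss (0.052). With blocks of 40 animal numbers as a covariate, the macrophage slope changed sign for Cts6 (-0.011). With the first principal component as a covariate, the macrophage slope changed sign for Ctss (other species) (0.012), Cts3 (0.060), Cts6 (-0.040), Cts7 (-0.14), Ctsd (0.069), Ctse (-0.045), Ctsg (-0.068), Ctsj (-0.074), Ctsm probe A (-0.034), Ctsm probe B (-0.021), Ctsm probe C (0.00038), Ctsr (-0.12) and Ctsw (-0.11), and the muscle slope for Ctss (0.28), Ctsh probe A (0.0016), Ctsh probe B (-0.049), Ctss (other species) (-0.031), Cts3 (-0.026), Cts8 probe A (-0.12), Ctsc (0.16), Ctsf (-0.044), Ctsk (0.055), Ctsl (0.00088), Ctsm probe C (-0.069), Ctso (0.099) and Ctsr (0.020), and the macrophage slope with muscle held for Ctsw (-0.11), and the muscle slope with macrophage held for Ctss (0.28) and Ctsh probe A (0.0033), and the difference of slopes for Ctsw (-0.093). With the median of the genes as score, the muscle slope with macrophage held changed sign for Ctss (0.048). With quantile normalization, the macrophage slope changed sign for Cts6 (-0.053) and Cts7 (-0.015), and the muscle slope for Cts6 (0.040). With ranks in place of values, the macrophage slope changed sign for Cts6 (-0.067), Ctsj (-0.075) and Ctsr (-0.045), and the muscle slope for Cts6 (0.087), and the muscle slope with macrophage held for Ctss (0.030). With values at the limits set to missing, the macrophage slope changed sign for Cts6 (-0.0037), and the muscle slope for Cts6 (0.017). Without the 56 arrays above the lymphocyte gap, the macrophage slope changed sign for Ctse (-0.00024), Ctsj (-0.012) and Ctsr (-0.0082), and the muscle slope for Ctsh probe B (-0.016), Cts8 probe A (-0.043), Ctsc (0.033), Ctsf (-0.030), Ctsm probe C (-0.025) and Ctso (0.083), and the macrophage slope with muscle held for Ctsw (-0.0012), and the muscle slope with macrophage held for Ctss (0.13). Without 20 arrays of outlying SD, the macrophage slope changed sign for Cts6 (-0.025) and Ctsj (-0.0067), and the muscle slope for Cts6 (0.028). With ranks, the lead of Ctsh over Ctsz and Ctsk in r turned to -0.296 and -0.261. The lead of Ctss over Ctsh in r passed under 4 alternatives (0.0762 to 0.444, the latter on ranks). Ranking gives both Ctsh probes equal weight in their average. The cause of the changes was not tested. No paired analysis was possible because there is 1 group.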
